A study of Mus musculus with 4 samples.

Results

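Cell cycle inhibitors and genes used to describe cellular senescence were read in RNA-seq counts from the stromal vascular fraction of mouse inguinal fat. The 10 genes were taken by symbol: 3 inhibitors of the CIP/KIP family (Cdkn1a, Cdkn1b, Cdkn1c), 4 symbols of the INK4 family (Cdkn2a, Cdkn2b, Cdkn2c, Cdkn2d), and Lmnb1, Gdf15 and Mdm2. All 10 were found among 26214 symbols, and all 10 passed the filter on low counts that left 16196 genes for testing. Groups of 2 libraries each were compared, from mice that received a medicinal herb extract (MHE) and mice that received phosphate-buffered saline (PBS). The libraries also held high levels of mature adipocyte transcripts, which goes against the label of a stromal vascular fraction: Adipoq, the adiponectin gene, had 2075 and 1462 CPM with the extract and 3172 and 4230 CPM with saline. The labels used here do not state strain, sex, age or diet, nor what the extract contains, how much was given or for how long, and they speak of triplicates where 2 libraries a group were analysed here. The names under which the files were deposited follow a different pattern in each group, the labels do not say what that marks, and any such difference between the animals cannot be told apart from the extract.

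Cyclin-dependent kinases drive cells through the division cycle, and both inhibitor families restrain them. CIP/KIP proteins bind complexes of cyclins with several kinases, whereas INK4 proteins bind CDK4 and CDK6 and so keep the RB protein able to hold back E2F transcription factors. In senescence, a lasting arrest, p21 (Cdkn1a) and p16 (from Cdkn2a) are commonly raised and lamin B1 (Lmnb1) is commonly lost, while Mdm2 and Cdkn1a are textbook targets of the tumour suppressor p53. In fat, p16 and p21 are widely used as readouts of aged or overnourished progenitors.

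Of the 10 genes, Lmnb1 rose with the extract and none fell (edgeR quasi-likelihood test, Benjamini-Hochberg adjusted p under 0.05). That is 1 of 10, where 4.93% of all genes tested passed, 3.97% of the genes tested being higher and 0.963% lower with the extract. Cdkn1b and Cdkn2d were higher in both extract libraries than in both saline libraries, and Cdkn1a and Cdkn2b were lower, without passing the test. Groups did not overlap for 5 of the 10 genes, including Lmnb1, against 62.0% of all genes tested. The median log2 fold change (extract minus saline) of the 10 was 0.11, with 5 positive and 5 negative, beside -0.02 over all genes tested. With 1 library left out that median ran from -0.03 to 0.27.

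The 4 libraries held 27161882 to 33391075 counts, and log2 CPM of tested genes correlated at 0.971 and 0.942 between replicates and at 0.864 to 0.896 between groups, across genes, which are not independent replicates. CPM here is each gene's share of its library's counts in the usual CPM unit, after scaling with TMM factors. Levels are given per library or as the mean ± SD of a group's 2 libraries, which the labels call biological replicates, and fold changes are given ± SE. With 2 libraries in each group the smallest two-sided p of an exact permutation test is 0.333, so the test across all genes was the only one used. No gene in the whole table passed without MHE replicate 1 or without MHE replicate 2 (2352 and 2596 genes at an unadjusted p under 0.05 by edgeR, the only tool run there), so every call named here, Lmnb1 included, was lost in both fits. In those fits the lone extract library is assumed to vary like the saline pair, and in the fits without a saline library the lone one is assumed to vary like the extract pair.

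The start regions of Cdkn1a, Cdkn1b and Cdkn2d are shown because these inhibitors lay furthest apart between the groups, the first lower and the others higher with the extract. Each sequence is the 250 bases before a RefSeq start (GRCm38.p6, the assembly behind mm10), read 5′ to 3′ on the gene's strand. They are chr17:29090729-29090978 (plus strand), chr6:134920151-134920400 (plus strand) and chr9:21291210-21291459 (minus strand). The Cdkn2d window precedes a start inside the gene. Most of it lies within the gene's span (21288459 to 21291421) rather than upstream of the gene. Capitals mark a p53 response element in Cdkn1a, and CCAAT and GGGCGG boxes on either strand in the others.
Cdkn1a: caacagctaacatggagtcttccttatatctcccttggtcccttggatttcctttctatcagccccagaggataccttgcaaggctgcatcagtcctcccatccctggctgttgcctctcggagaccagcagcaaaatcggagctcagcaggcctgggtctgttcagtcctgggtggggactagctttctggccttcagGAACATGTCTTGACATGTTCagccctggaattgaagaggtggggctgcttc
Cdkn1b: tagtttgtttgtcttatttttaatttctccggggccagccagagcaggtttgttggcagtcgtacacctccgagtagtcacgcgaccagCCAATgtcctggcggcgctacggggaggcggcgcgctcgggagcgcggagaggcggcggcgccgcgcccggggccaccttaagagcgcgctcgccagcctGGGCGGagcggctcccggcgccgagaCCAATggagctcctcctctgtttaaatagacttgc
Cdkn2d: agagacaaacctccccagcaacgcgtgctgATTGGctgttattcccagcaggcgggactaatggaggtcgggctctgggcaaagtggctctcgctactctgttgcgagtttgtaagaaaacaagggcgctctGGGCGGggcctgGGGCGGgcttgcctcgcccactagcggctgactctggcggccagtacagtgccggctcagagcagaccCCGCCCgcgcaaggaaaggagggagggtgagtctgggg

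The p53 response element was searched as 2 adjoining half-sites of its consensus, and the copy in Cdkn1a matched at 19 of 20 positions, 32 to 51 bases before the start. With 1 mismatch allowed, 25 of 32851 RefSeq windows of the same length (0.0761%) held such a match. An exact search found 3 windows, none at these genes, and the mismatch was allowed after that was seen. Windows were matched for 8 of the 10 genes, and Cdkn1a was the 1 of them with such a match. Cdkn1a has another RefSeq start on the same strand, whose window held no such match and 2 GGGCGG boxes. Among 19 other p53 target genes with a window, Ccng1 had 1. The Cdkn1b window held 2 CCAAT boxes and 1 GGGCGG box, and the Cdkn2d window 1 and 3, where 33.8% and 32.7% of all windows held at least 1 of each. These matches describe letters only.

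Within the CIP/KIP family, Cdkn1a and Cdkn1b differed between the groups in opposite directions, neither past the test. Cdkn1a encodes p21, which stops the cycle after DNA damage and also marks many differentiating cells (chromosome 17, 29090979 to 29100722). It had 59.0 and 81.1 CPM in the extract libraries and 136 and 211 CPM in the saline libraries. Both extract values lay below both saline values, and the saline replicates differed by 1.55-fold. The log2 fold change was -1.31 ± 0.32 (SE), 2.48-fold lower with the extract, at an adjusted p of 0.0814 by edgeR. DESeq2 gave an adjusted p of 0.00285, and without PBS replicate 1 edgeR gave 0.00729.

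Cdkn1b encodes p27, which holds resting cells out of the cycle and is abundant in quiescent lymphocytes (chromosome 6, 134920401 to 134925525). It stood at 74.9 and 85.6 CPM with the extract against 41.8 and 34.6 CPM with saline, so the lowest extract library was above the highest saline library. The log2 fold change was 1.07 ± 0.21, 2.10-fold higher, at an adjusted p of 0.0567 by edgeR. With DESeq2 the adjusted p was 0.00218, with limma-voom 0.0482, and without PBS replicate 1 it was 0.0253 by edgeR. Cdkn1c encodes p57, an imprinted inhibitor active in development and stem cells (chromosome 7, 143458339 to 143461059). It had 17.5 and 35.6 CPM with the extract and 48.2 and 35.1 CPM with saline, and these ranges overlapped (-0.65 ± 0.39, adjusted p = 0.328). Without MHE replicate 1 its log2 fold change was -0.21, and without MHE replicate 2 it was -1.24.

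Counts with DESeq2 and limma-voom read against larger backgrounds. DESeq2 called 3 of the 10 (Lmnb1, Cdkn1a and Cdkn1b) where it called 18.2% of all genes, and limma-voom called 2 (Lmnb1 and Cdkn1b) where it called 7.0%. Without PBS replicate 1, edgeR called the same 3 where it called 16.5% of genes, and without PBS replicate 2 it called Lmnb1 alone where it called 14.6%. Cdkn1a and Cdkn1b thus passed or did not pass depending on the tool, and in the fits with 1 saline library the spread came from the extract pair alone.

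Because a ratio of counts of 2 genes within a library needs no scaling between libraries, the inhibitors were also set side by side in each library. Counts of Cdkn1a per exon base were 1.01 and 1.21 times those of Cdkn1b with the extract, and 4.17 and 7.81 times with saline. Thus p21 and p27 transcripts were near parity in the extract libraries, whereas p21 transcripts were several times more abundant in the saline libraries. On the scale of mean CPM per kilobase of exon, Cdkn1a was the highest of the 10 genes with saline (48.9) and Cdkn2c with the extract (25.3), followed there by Cdkn1a (19.7), Cdkn1b (17.6), Cdkn2d (15.9) and Cdkn1c (13.0). Those extract levels overlapped between libraries, since Cdkn2c had 33.8 and 16.7, Cdkn1a 16.6 and 22.8, Cdkn1b 16.4 and 18.8, and Cdkn2d 19.0 and 12.8. Cdkn2a was lowest in both groups, at 2.13 and 1.22.

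**Figure D1:**
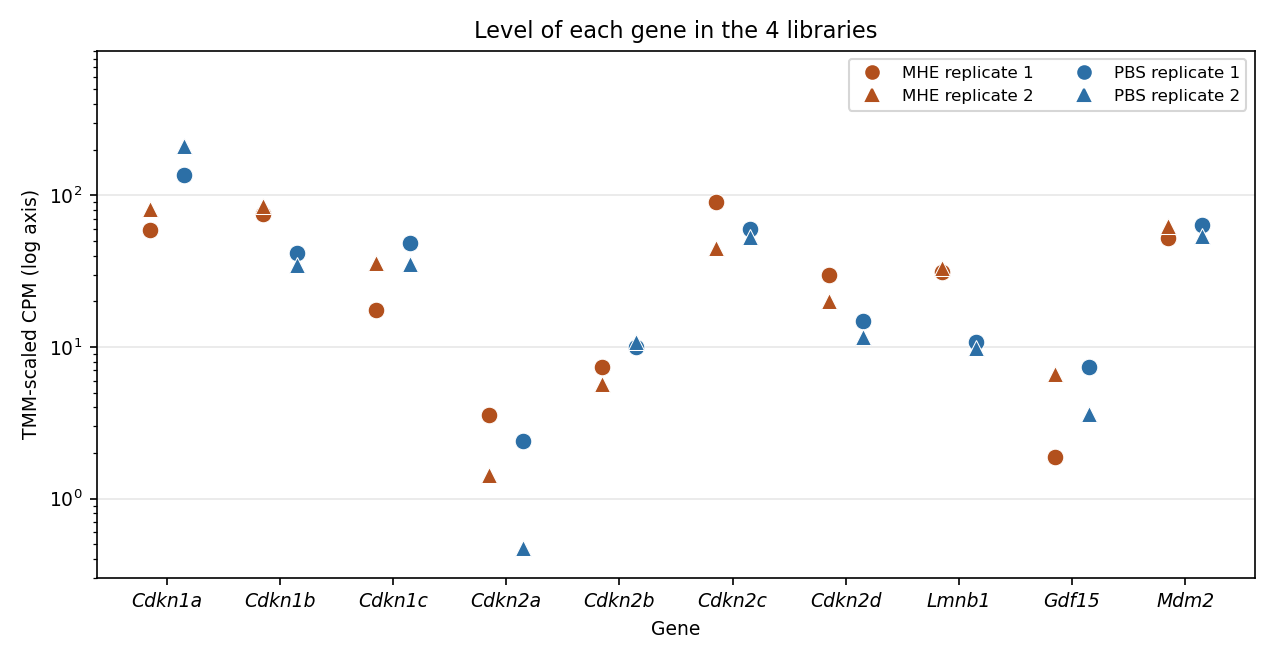
TMM-scaled CPM (log axis) of the 10 genes in each library, orange for MHE and blue for PBS, circles for replicate 1 and triangles for replicate 2. Lmnb1 sits at 31.4 and 33.2 with MHE and at 10.8 and 9.90 with PBS, while the points of Mdm2 lie within 52.6 to 64.2.

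None of the 4 INK4 genes passed the test by edgeR or by DESeq2, and 1 of them, Cdkn2d, had an unadjusted p under 0.05 by edgeR (0.0237). Cdkn2a encodes both p16 and, from another reading frame, p19ARF, and counts per symbol do not separate them (chromosome 4, 89274473 to 89294619). It was scarce, with 118 and 41 counts in the extract libraries and 66 and 14 in the saline libraries, or 3.55, 1.44, 2.38 and 0.473 CPM. Groups overlapped, and replicates differed by 2.47-fold with the extract and 5.04-fold with saline, in both cases more than the 1.75-fold between groups. The log2 fold change was 0.81 ± 0.91 (adjusted p = 0.588), with a 95% interval of -1.52 to 3.14, and it ran from 0.03 without MHE replicate 1 through 0.08 without PBS replicate 2 and 1.33 without MHE replicate 2 to 2.38 without PBS replicate 1.

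Cdkn2b encodes p15, an inhibitor induced by TGF-beta, and lies beside Cdkn2a (chromosome 4, 89306289 to 89311032). It had 7.37 and 5.72 CPM with the extract and 10.1 and 10.8 CPM with saline, so the groups did not overlap and the log2 fold change was -0.67 ± 0.28 (adjusted p = 0.189). Both neighbours thus had opposite signs, neither past the test. The ratio of Cdkn2b to Cdkn2a per exon base was 1.75 and 3.35 with the extract and 3.56 and 19.2 with saline, and the last value rests on the 14 counts of Cdkn2a in PBS replicate 2.

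Cdkn2c encodes p18, which limits division of lymphocytes and plasma cells and is also present in fat (chromosome 4, 109660876 to 109666756). It stood at 90.7 and 45.0 CPM with the extract and at 59.6 and 53.1 CPM with saline. The extract replicates lay on either side of the saline range, and the sign of the difference turned with them: 0.27 ± 0.37 with all libraries (adjusted p = 0.657), -0.31 without MHE replicate 1 and 0.70 without MHE replicate 2. Cdkn2d encodes p19INK4d (chromosome 9, 21288459 to 21291421), and it had 29.9 and 20.2 CPM with the extract against 14.9 and 11.6 CPM with saline. Its groups did not overlap, and its log2 fold change of 0.92 ± 0.29 had an adjusted p of 0.126.

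Lmnb1 rose in both extract libraries by about the same amount. It encodes lamin B1, a filament protein of the nuclear lamina (chromosome 18, 56707813 to 56753424). It had 1043 and 946 counts with the extract and 298 and 293 with saline, or 31.4 and 33.2 against 10.8 and 9.90 CPM (32.3 ± 1.28 and 10.3 ± 0.604, n = 2 each). Replicates differed by 1.06-fold and 1.09-fold, and the groups by 3.13-fold. The log2 fold change was 1.64 ± 0.20 at an adjusted p of 0.0255 by edgeR, with a 95% interval of 1.13 to 2.16. It stayed between 1.60 and 1.70 when any 1 library was left out, but its adjusted p was 0.311 without MHE replicate 1 and 0.270 without MHE replicate 2.

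**Figure D2:**
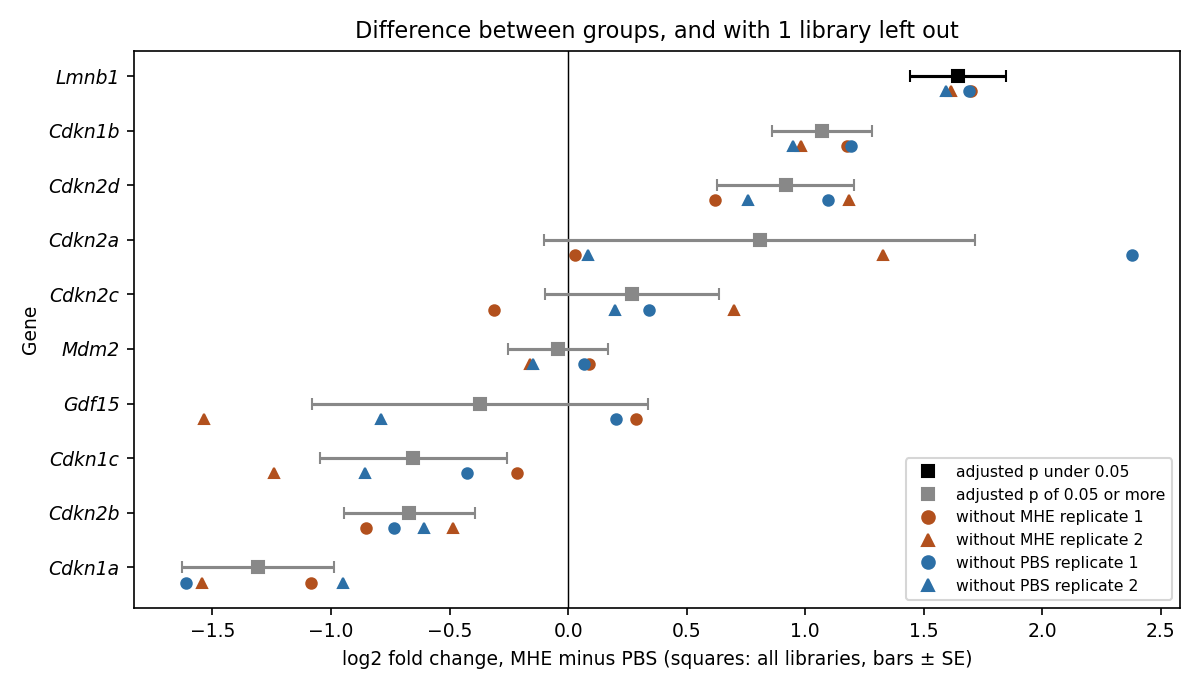
Log2 fold change (MHE minus PBS) of each gene with all libraries (squares, bars ± SE, black where the adjusted p was under 0.05) and, below each square, with 1 library left out. The Lmnb1 values stay between 1.60 and 1.70, whereas those of Gdf15 run from -1.54 to 0.29 and those of Cdkn2a from 0.03 to 2.38.

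Other genes of the nuclear lamina, listed together with the general chromatin protein genes Hmgb1 and Hmgb2, were mostly higher with the extract. Of 11 such genes, 2 rose and none fell, 9 were positive and 2 negative, with a median log2 fold change of 0.30 (0.51 without PBS replicate 1). Lbr, the lamin B receptor that tethers heterochromatin, stood at 99.2 and 101 CPM with the extract and 31.4 and 35.1 CPM with saline (1.59 ± 0.19, adjusted p = 0.0255 by edgeR). Hmgb2, a chromatin protein of dividing cells, stood at 84.9 and 83.4 against 30.9 and 19.9 CPM (1.73 ± 0.27, adjusted p = 0.0424). The thymopoietin gene Tmpo had 0.64 ± 0.21 (adjusted p = 0.137). Lmna, the A-type lamin gene, had the opposite sign, at 71.9 and 98.9 CPM with the extract and 211 and 170 CPM with saline (-1.16 ± 0.27, adjusted p = 0.0755). Per exon base, Lmna counts were 1.16 and 1.51 times those of Lmnb1 with the extract and 9.93 and 8.72 times with saline.

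**Figure D3:**
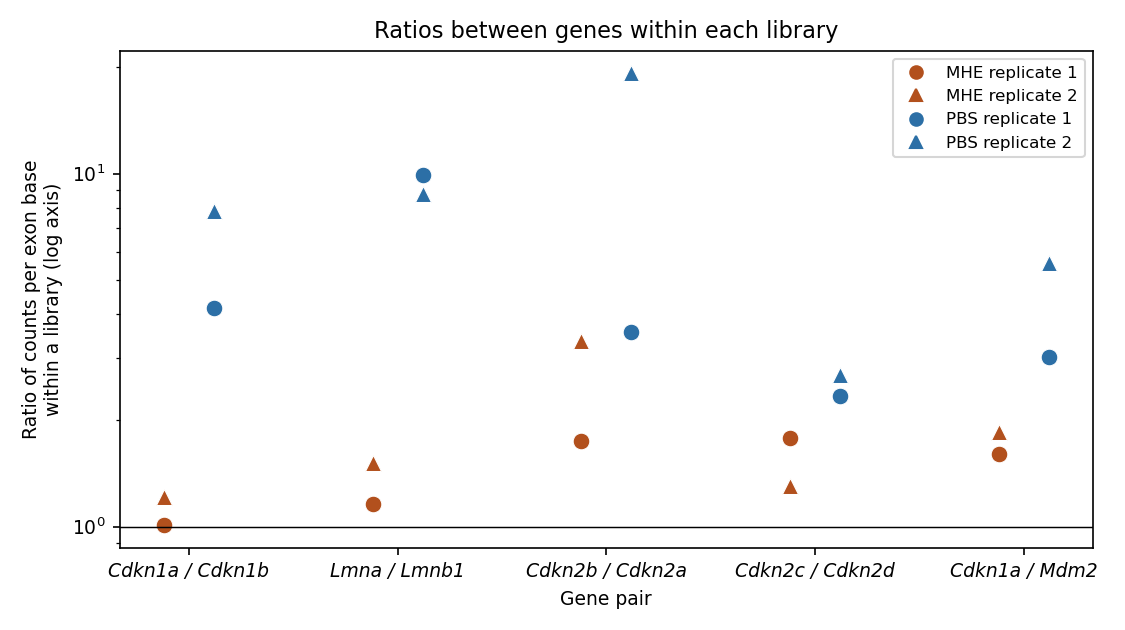
Ratio of counts per exon base between gene pairs within each library (log axis, line at 1), orange for MHE and blue for PBS. Both MHE libraries lie below both PBS libraries for every pair shown. The pairs, and which gene is on top, were set by hand with earlier results of these data known. No share over other gene pairs was computed. Examples are Cdkn1a over Cdkn1b (1.01 and 1.21 against 4.17 and 7.81), Lmna over Lmnb1 (1.16 and 1.51 against 9.93 and 8.72) and Cdkn2c over Cdkn2d (1.78 and 1.31 against 2.34 and 2.68).

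Markers of lymphocytes and of other cells moved with the same libraries. All 10 T cell markers were detected in every library and summed to 983 and 728 CPM with the extract against 44.2 and 14.6 CPM with saline, and 9 of 10 rose (median 5.01). All 10 B cell markers were also detected and summed to 2025 and 1612 against 112 and 9.60 CPM, and 4 of 10 rose (median 4.81). Of 6 lymph node stroma markers, 5 were tested and 3 rose; the sums were 813 and 478 against 143 and 14.5 CPM, with Ccl19 at 0 counts in every library, Madcam1 at 0 in PBS replicate 1 and Glycam1 at 0 in PBS replicate 2. Lmnb1, Cdkn1b, Cdkn2d and 11 of 16 proliferation genes were higher in both extract libraries, where these sums were higher. The other 5 proliferation genes overlapped between groups. Of all genes tested, 62.0% did not overlap, but that share counts both directions. The share of all genes higher in both extract libraries was not computed, so 11 of 16 has no like background here. Without PBS replicate 1 the B cell and lymph node medians were 8.43 and 6.16, and all 10 B cell markers rose. The part of these cells in the differences was not tested, and in bulk tissue a change in cell number and a change in RNA per cell cannot be told apart.

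The summed levels of adipocyte, smooth muscle and lipid-associated macrophage markers were higher in the saline libraries, where Cdkn1a and Lmna were higher. Mature adipocyte markers summed to 23431 and 16047 CPM with the extract and 25554 and 35999 with saline, and 1 of 10 (Lep) fell. Of the 10, 8 were negative and 2 positive, and Fabp4 (the largest part of each sum), Retn and Acvr1c overlapped between groups. The positive ones, named after their values were seen, were Cfd (2016 and 2140 against 854 and 1644 CPM) and Pck1 (1528 and 2510 against 1194 and 1524 CPM). Smooth muscle and pericyte markers summed to 505 and 803 against 2959 and 3168 CPM, and 1 of 8 (Lmod1) fell (median -2.24, and -1.16 without PBS replicate 1). Lipid-associated macrophage markers summed to 2793 and 5850 against 12253 and 14230 CPM, and none of 8 passed (median -1.94, -2.98 without MHE replicate 2 and -1.19 without PBS replicate 1). Lpl, which adipocytes also express, made up 2193 and 4819 CPM of these sums with the extract and 8099 and 12439 CPM with saline, and Gpnmb, named after its values were seen, had 24.1 and 201 against 955 and 207 CPM. General macrophage markers summed to 513 and 859 against 1090 and 641 CPM, and none of 8 passed. All 8 endothelial markers were negative and none passed, at sums of 838 and 886 against 889 and 1669 CPM, while 5 were called lower without PBS replicate 1. All 9 adipocyte progenitor markers were detected in each library, at summed levels of 1151 and 1719 against 2170 and 1800 CPM. Of these, 3 were positive and 6 negative, and 1 (Icam1) rose. Dpp4 was also higher with the extract, at 56.1 and 61.6 against 32.8 and 34.7 CPM. Cd34 was lower, at 76.9 and 101 against 155 and 212 CPM. Pi16 had a log2 fold change of -1.88 ± 0.99 and overlapped between groups. Dpp4, Cd34 and Pi16 did not pass the test. The part of all these cells in the Cdkn1a difference was not tested.

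Mdm2 and Gdf15 overlapped between the groups, where Cdkn1a did not. Mdm2 encodes the ubiquitin ligase that degrades p53 (chromosome 10, 117688875 to 117710758). It had 52.6 and 62.5 CPM with the extract and 64.2 and 54.3 CPM with saline, an overlap in which no library stood out. The log2 fold change was -0.04 ± 0.21 (adjusted p = 0.91), with a 95% interval of -0.58 to 0.49, and 0.11 when libraries were scaled by their totals alone. Counts of Cdkn1a per exon base were 1.60 and 1.86 times those of Mdm2 with the extract and 3.03 and 5.56 times with saline. Gdf15 encodes a stress hormone acting on the hindbrain (chromosome 8, 70629393 to 70632470). It had 1.87 and 6.60 CPM with the extract and 7.33 and 3.62 CPM with saline, so replicates of the extract group differed by 3.54-fold and the groups by 1.29-fold (-0.37 ± 0.71, adjusted p = 0.756). The 95% interval for Gdf15 was -2.19 to 1.45, which includes the Cdkn1a value of -1.31. The sign of Gdf15 turned without MHE replicate 1 (0.29) or PBS replicate 1 (0.20). Its log2 fold change was -1.54 without MHE replicate 2 and -0.79 without PBS replicate 2.

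Genes that act on p53 were mostly higher with the extract. Of 11 such genes, Atm rose and 10 of 11 had positive log2 fold changes (median 0.92). Atm, a kinase that signals DNA breaks, stood at 53.4 and 66.8 CPM with the extract and 23.8 and 26.6 CPM with saline (1.25 ± 0.21, adjusted p = 0.0454 by edgeR). Mdm4, a relative of Mdm2 that blocks p53, had 121 and 155 against 62.3 and 55.3 CPM (1.23 ± 0.23, adjusted p = 0.0528). Trp53 itself had 75.9 and 59.6 against 33.6 and 30.7 CPM (1.08 ± 0.21, adjusted p = 0.058). Usp7, which removes ubiquitin from p53 and Mdm2, had 0.71 ± 0.21 (adjusted p = 0.116). These 4 genes were named because they had the smallest p of the list. The groups did not overlap for any of the 11 genes of the list, where 62.0% of all genes tested did not.

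Other p53 target genes pointed both ways. Of 25 tested, Pmaip1 rose and none fell, 9 were positive and 16 negative, and the median was -0.15 (-0.34 without MHE replicate 2 and -0.07 without PBS replicate 2). DESeq2 called 3 higher and 5 lower, edgeR called 2 higher and 5 lower without PBS replicate 2, and scaling by library totals alone gave 3 higher, none lower and a median of 0.03. Pmaip1 encodes NOXA, a trigger of apoptosis, and stood at 22.9 and 27.4 CPM with the extract and 6.53 and 4.39 CPM with saline (2.20 ± 0.30, adjusted p = 0.0315 by edgeR). Trp53inp1, a cofactor of p53, had 1.05 ± 0.24 (adjusted p = 0.0717). Gadd45a, a DNA damage gene, had -1.17 ± 0.24 (adjusted p = 0.0584) and the kinase gene Plk2 had -1.31 ± 0.28 (adjusted p = 0.0652), with no overlap between groups. Groups did not overlap for 13 of the 25 genes, beside 62.0% of all genes tested. Ccng1, named for its start region after its values were seen, had 136 and 139 CPM with the extract and 241 and 215 CPM with saline (-0.73 ± 0.22, adjusted p = 0.121).

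**Figure D4:**
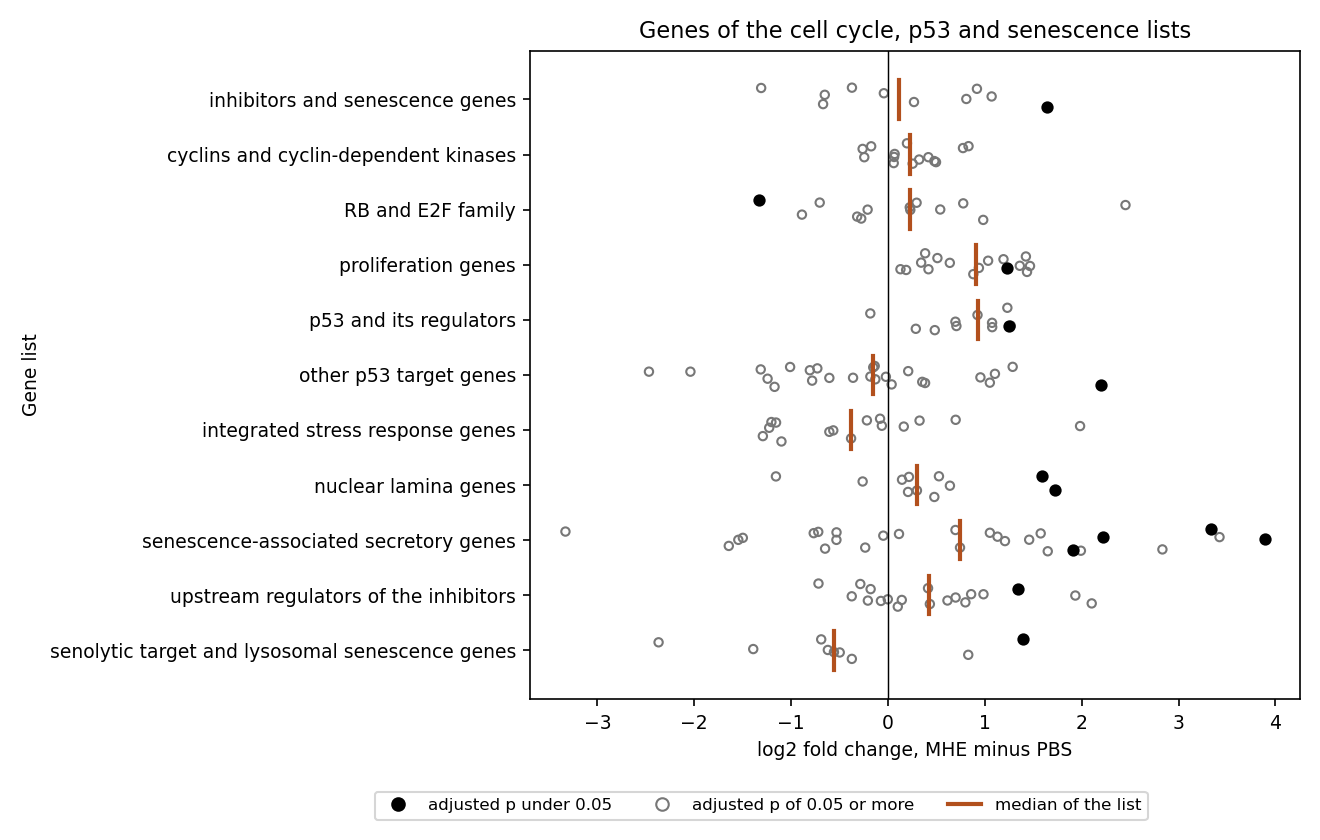
Log2 fold change (MHE minus PBS) of each tested gene in the 10 genes described here and in 10 related lists, filled where the adjusted p was under 0.05, with the median of each list as an orange bar. All 16 proliferation genes lie right of 0 with a median of 0.91, while the p53 targets spread on both sides with a median of -0.15.

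The list of cyclins and kinases, which includes those that the inhibitors act on, gave no call with all libraries. None of 14 cyclins and cyclin-dependent kinases passed edgeR (DESeq2 called none either, and none of the 14 had an unadjusted p under 0.05), and their median was 0.23. Ccnd1, the cyclin D1 gene, had 116 and 108 CPM with the extract and 83.9 and 47.1 CPM with saline (0.77 ± 0.32, adjusted p = 0.194). Cdk2 had 0.50 ± 0.22, Ccnb1 0.83 ± 0.46 and Cdk4 0.42 ± 0.29, at adjusted p of 0.219, 0.296 and 0.389. Without PBS replicate 1 the list had 1 call (Ccnd1) and a median of 0.38, and its median was 0.12 without MHE replicate 2 and 0.11 without PBS replicate 2.

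Among 13 RB and E2F genes, E2f1 fell and none rose (median 0.22). E2f1, an activator of S-phase genes, stood at 9.75 and 9.41 CPM with the extract and 24.9 and 23.4 CPM with saline (-1.33 ± 0.21, adjusted p = 0.0409 by edgeR, and 0.0564 when libraries were scaled by their totals alone). E2f4, a partner of the RB relatives in resting cells, had 40.8 and 36.7 against 19.9 and 19.3 CPM (0.98 ± 0.19, adjusted p = 0.0548). E2f2 had 25.9 and 16.3 against 5.56 and 2.16 CPM (2.45 ± 0.54, adjusted p = 0.0683), and Rbl1, which encodes p107, had 0.78 ± 0.20 (adjusted p = 0.0918). With library totals alone E2f4 was the 1 gene of the list to pass (adjusted p = 0.0481), so that the list's call turned from lower to higher. DESeq2 called 2 higher and 1 lower. E2f1 and E2f2 had opposite signs with no overlap between groups. Groups did not overlap for 8 of the 13 genes, beside 62.0% of all genes tested. Leaving out MHE replicate 1, PBS replicate 1 or PBS replicate 2 gave list medians of 0.05, 0.04 and -0.02.

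Of 16 proliferation genes, Mcm4 rose and all 16 were positive (median 0.91). Mcm4, a part of the replication helicase, stood at 40.1 and 45.8 CPM with the extract and 17.7 and 18.8 CPM with saline (1.23 ± 0.19, adjusted p = 0.0418 by edgeR). Its partners Mcm2 and Mcm3 had 1.42 ± 0.31 and 1.19 ± 0.28, and Top2a, a topoisomerase of dividing cells, 1.36 ± 0.30, at adjusted p of 0.067, 0.0753 and 0.0686. DESeq2 called 7 of the 16, and edgeR called 8 when PBS replicate 1 was left out and 2 when PBS replicate 2 was. The extract libraries, with the higher Cdkn1b and Cdkn2d values, also had the higher values of these 4 replication genes. Those 4 were named for the smallest p of the list, so their separation between groups follows from that choice. Pcna, Tyms, Birc5, Bub1 and Foxm1 of the same list overlapped between groups.

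Of 28 genes of the secretory profile of senescent cells, 27 were tested, 4 rose and none fell (median 0.74). Icam1, an adhesion molecule, had 101 and 116 CPM with the extract and 28.9 and 28.5 CPM with saline (1.91 ± 0.20, adjusted p = 0.0219 by edgeR). The chemokine gene Ccl5 had 115 and 105 against 10.9 and 3.92 CPM and Cxcl10 had 8.88 and 8.78 against 1.73 and 2.06 CPM, with log2 fold changes of 3.89 and 2.22. The cytokine gene Il1a had 2.92 and 3.19 against 0.397 and 0.203 CPM (3.34 ± 0.59, adjusted p = 0.0487, and 0.0502 without the filter on low counts). Icam1 is also on the adipocyte progenitor list, and all 4 are also made by immune cells. T and B cell markers were higher in the same libraries. All 8 general macrophage markers overlapped between groups, and all 8 lipid-associated macrophage markers were lower with the extract, none passing. The part of these cells was not tested. Of the list's other tested genes 12 were positive and 11 negative, the list's median was 0.12 when MHE replicate 2 was dropped and 0.42 when PBS replicate 1 was, and DESeq2 called 7 higher and 1 lower.

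None of 15 genes of the integrated stress response, which raises Gdf15 in many tissues, passed edgeR (median -0.38), while 4 had an unadjusted p under 0.05 and DESeq2 called 4. The amino acid synthesis genes Psat1 and Phgdh had -1.23 ± 0.26 and -1.10 ± 0.26 (adjusted p = 0.063 and 0.0776), and the lipoprotein receptor gene Vldlr had 46.9 and 59.4 CPM with the extract and 111 and 149 CPM with saline (-1.29 ± 0.26, adjusted p = 0.0584). Slc7a11, a cystine transporter gene, had 10.5 and 14.0 against 4.01 and 2.20 CPM (1.98 ± 0.41, adjusted p = 0.0594). The median was -0.19 without PBS replicate 2.

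Profiles over the 4 libraries were compared among the 169 other tested genes of these lists, by root mean square distance of centred log2 CPM. Closest to Lmnb1 was Lbr (0.103), followed by Icam1 (0.145) and Hmgb2 (0.197). Closest to Cdkn1b were Ezh2 (0.0689), Mdm4 (0.102) and the survival gene Mcl1 (0.131). Closest to Cdkn1a were Vldlr (0.0846) and Tfdp2 (0.227). With 4 libraries such nearness describes only which genes were high and low in the same samples.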

How the data were processed

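Total RNA was isolated with Trizol and made into Illumina libraries, per the labels' protocols. The files the authors deposited hold raw counts for each gene symbol. TopHat2, edgeR, limma and mm10 are named in the submitters' processing notes, without versions. How reads were counted (program, annotation, strand) is not given in the sources used here. Cdkn1a and Cdkn1c overlap opposite-strand models in GENCODE, whose reads cannot be told apart without strand.

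From the counts, edgeR 4.0.16 in R 4.3.3 was run with filterByExpr (minimum count 10, total 15), TMM and a robust quasi-likelihood fit over 16196 genes. Adjusted p is Benjamini-Hochberg over all of them, with a threshold of 0.05. SE is the log2 fold change over the square root of F. Intervals (95%) use the t quantile. Coordinates come from RefSeq (GRCm38.p6), which matched 26167 symbols, and exon lengths from GENCODE. The alternatives used DESeq2 1.42.0 and limma 3.58.1 among others.

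Members, lists and tests were chosen with earlier results of these data known. Named were the 10 genes, up to 4 genes of each list with the smallest p, and the nearest profiles of 3 genes, of which 1 is not reported here. The procedure was tested on simulated data. Protein sequences were not used here. No libraries agreed within sampling noise.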

Additional observations from a re-analysis of the deposited data

How the results depend on the processing

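With 2 libraries a group, every call rests on few samples. Leaving out 1 library gave 0 to 2750 genes past the threshold, 0 to 1753 higher, 0 to 1233 lower and 0 to 3 of the 10 genes; the lowest counts came without either extract library, in fits where an arm of 1 library is assumed to vary like the other group. Over the same fits the log2 fold change of Cdkn1a ran from -1.61 to -0.95, of Cdkn1b from 0.95 to 1.20, of Cdkn2c from -0.31 to 0.70, of Lmnb1 from 1.60 to 1.70, of Gdf15 from -1.54 to 0.29 and of Mdm2 from -0.16 to 0.0896. DESeq2 called 2951 genes (1714 higher, 1237 lower) and 3 of the 10, with Cdkn1a at -1.34 and Cdkn1b at 1.04, against 799 (643 higher, 156 lower) and 1 by edgeR. limma-voom called 243 genes lower and 2 of the 10, with Cdkn1b at 1.08. The cause was not tested. Scaling by library totals alone moved the median of all genes from -0.02 to 0.14 and the share of calls that were higher from 80.5% to 87.4%, and Mdm2 turned to 0.11; DESeq2 gave a share of 58.1%. Replicate numbers are shared between groups, but nothing ties them to pairs of animals (correlation of deviations 0.12). With the replicate block 764 genes passed, 2 of the 10 among them, since Cdkn1a (-1.29, adjusted p = 0.0478 by edgeR) joined Lmnb1, while E2f1, Cxcl10 and Il1a had adjusted p of 0.0509, 0.0551 and 0.0683 and E2f2 0.0409. Over the pathway and marker lists, 92 of 264 counts of calls and 44 of 264 medians moved beyond 1.5 times or the replicate spread. Cdkn2a had 14 to 118 counts and replicates 2.47-fold and 5.04-fold apart.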

Other observations

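Genes known to control the inhibitors were read from a list of 20, of which 1 rose and none fell (median 0.42). Cbx7, a Polycomb protein that represses the Cdkn2a locus, stood at 105 and 99.2 CPM with the extract and 36.5 and 44.3 CPM with saline (1.34 ± 0.21, adjusted p = 0.0409 by edgeR). Ezh2, the Polycomb methyltransferase, had 14.3 and 16.2 against 8.05 and 7.37 CPM (0.99 ± 0.24, adjusted p = 0.0785). Myc had 43.4 and 42.9 against 20.03 and 14.0 CPM (1.34 ± 0.25, adjusted p = 0.0502), and Ets1, a factor of lymphocytes and vessels, 522 and 494 against 96.0 and 170 CPM (1.93 ± 0.37, adjusted p = 0.0537). Cdkn2a overlapped between groups. The list's median was 0.20 when MHE replicate 2 was left out, 0.21 when PBS replicate 1 was and 0.64 when MHE replicate 1 was.

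Of 9 genes used as lysosomal signs of senescence or as targets of drugs that kill senescent cells, Bcl2 rose and none fell (median -0.56). Bcl2, a survival gene, stood at 109 and 123 CPM with the extract and 37.6 and 50.3 CPM with saline (1.40 ± 0.24, adjusted p = 0.0457 by edgeR). Its relative Bcl2l2 had -0.69 ± 0.23 (adjusted p = 0.136). Glb1, whose enzyme gives the beta-galactosidase stain of senescent cells, had 32.6 and 36.4 against 54.8 and 51.3 CPM (-0.62 ± 0.19, adjusted p = 0.116), and the cathepsin gene Ctsd had -1.39 ± 0.40 (adjusted p = 0.108). The groups did not overlap for any of the 9 genes, where 62.0% of all genes tested did not.

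PBS replicate 1 held epithelial transcripts, with the 6 epithelial markers summing to 134 CPM there and to 2.06 to 6.35 CPM in the other libraries. Of the skeletal muscle markers, 3 were positive and 3 negative. Acta1 had 1174 CPM in PBS replicate 2 and made up nearly all of the list's 1176 CPM there, with Ckm at 0. Myh4 rose with the extract at 2.08 and 1.47 against 0.108 and 0.0338 CPM, scarce in every library (adjusted p = 0.0486 by edgeR). Myh4 did not pass with limma-voom (adjusted p = 0.052) or with edgeR without the filter on low counts (adjusted p = 0.0552). Erythroid markers summed to 8694 CPM in MHE replicate 1 and 1876 to 5617 CPM elsewhere. The log2 fold change of Lmnb1 was 1.69 when PBS replicate 1 was left out and 1.60 when PBS replicate 2 was.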
